A study of Homo sapiens with 12 samples.

Results

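The cyclin-dependent kinase (CDK) inhibitor genes and the factors that remove their proteins are a set of 10 genes chosen by name, and they are described here across 4 groups of HK-2 libraries. The set holds 3 CIP/KIP genes (CDKN1A, CDKN1B and CDKN1C), 4 INK4 genes (CDKN2A, CDKN2B, CDKN2C and CDKN2D), the phosphatase gene CDKN3, and SKP2 and CKS1B, whose products mark p27 for destruction. These are 10 of the 58288 Ensembl gene IDs in the count table, and all 10 passed the filter on low counts that left 13959 genes for testing. HK-2 is a line of human kidney proximal tubule cells that was immortalized with papillomavirus E6 and E7, proteins that act on p53 and RB1. All cells were kept in the same medium (DMEM plus serum and antibiotics) and came from selected stable clones, either with a nontargeting hairpin (nontarget, genotype WT in the labels) or with a hairpin against FLCN (FLCN knockdown). Cells of both kinds were harvested below 30 passages (short-term) or beyond 120 passages (long-term) according to the labels, and each of the 4 groups had 3 biological replicates of polyA RNA. The study's methods set a lower passage limit for long-term culture than the labels do. The hairpin and the clone that carries it came together wherever knockdown cells were set against nontarget cells. Their effects cannot be told apart there.

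Progress from G1 into S phase is driven by CDK4 or CDK6 with D-type cyclins and by CDK2 with cyclin E, which together phosphorylate RB1 and free the E2F factors. INK4 proteins bind CDK4 and CDK6 and keep D-type cyclins away, whereas CIP/KIP proteins bind whole cyclin-CDK complexes, CDK2 complexes above all. The p27 and p21 proteins are removed in S phase by the SCF ubiquitin ligase, in which SKP2 recognizes phosphorylated p27 with the help of the small adaptor CKS1B. FLCN, the tumor suppressor lost in Birt-Hogg-Dubé syndrome, controls mTORC1 signaling at the lysosome and through it the transcription factors TFEB and TFE3.

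The libraries held 5825779 to 8991051 counts in genes, and values are given as CPM, read counts scaled to a common library size by TMM. FLCN itself fell by 60.2% after short-term and by 38.5% after long-term knockdown (edgeR quasi-likelihood test, adjusted p = 1.12e-04 and 0.00611), with no overlap between the libraries of each pair of groups. Of the proximal tubule markers, PAX8 had group means of 162 to 251 CPM, while LRP2, HNF4A, SLC22A6 and SLC22A8 were at 0 in all 12 libraries. Of 5 epithelial markers, the keratins KRT8 and KRT18 were abundant (group means of 645 to 2154 CPM). EPCAM had group means of 20.7 to 50.7 CPM, and CDH1 at most 0.74 CPM. KRT19 was at 32.6 to 32.8 CPM in the short-term and 4.19 to 5.07 CPM in the long-term groups. The summed level of 4 leukocyte markers was at most 0.52 CPM, with PTPRC and CD3E at 0 throughout. The summed level of 7 fibroblast markers was 49.2 to 56.8 CPM in short-term and 24.6 to 36.8 CPM in long-term libraries, and that of 4 endothelial markers was at most 2.20 CPM. In bulk RNA such as this, fewer cells that express a gene and less RNA per cell cannot be told apart.

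Long-term FLCN knockdown changed 7 of the 10 genes, with 3 of the 4 INK4 genes higher and 2 of the 3 CIP/KIP genes lower. CDKN1A and CDKN1C of the CIP/KIP family fell, CDKN2A, CDKN2B and CDKN2C of the INK4 family rose, CDKN2D fell, and SKP2 rose. Called means an adjusted p below 0.05 over all 13959 genes. By that rule 4 genes rose and 3 fell, where 13.7% of all tested genes rose and 15.8% fell in this comparison. The libraries of the 2 groups did not overlap for the same 7 genes, where 19% of all tested genes were higher and 20.7% lower without overlap. With a fold limit of 2.5 as well, 3 genes passed (CDKN1A, CDKN1C and CDKN2C), where 6.61% of all genes did. The fold change went below this limit for CDKN1A without long-term nontarget replicate 3 (log2 fold change -1.27), and for CDKN2C without long-term nontarget replicate 2 or long-term knockdown replicate 3 (1.22 and 1.30). The median log2 fold change was 0.24 over the 10 genes and 0.00095 over all genes.

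Short-term knockdown changed 3 of the 10 genes, all upward: CDKN1C, CDKN2C and SKP2. The groups did not overlap for these 3 genes, where 15.2% of all tested genes were higher and 15% lower without overlap. The background of called genes in this comparison was 5.62% higher and 4.71% lower, and with the fold limit, which CDKN1C alone passed among the 10 (not so without short-term knockdown replicate 3), it was 1.79%. The median log2 fold change was 0.21 over the 10 genes and -6.86e-05 over all genes. Both knockdown comparisons were fitted in 1 model and have no library in common.

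**Figure D1:**
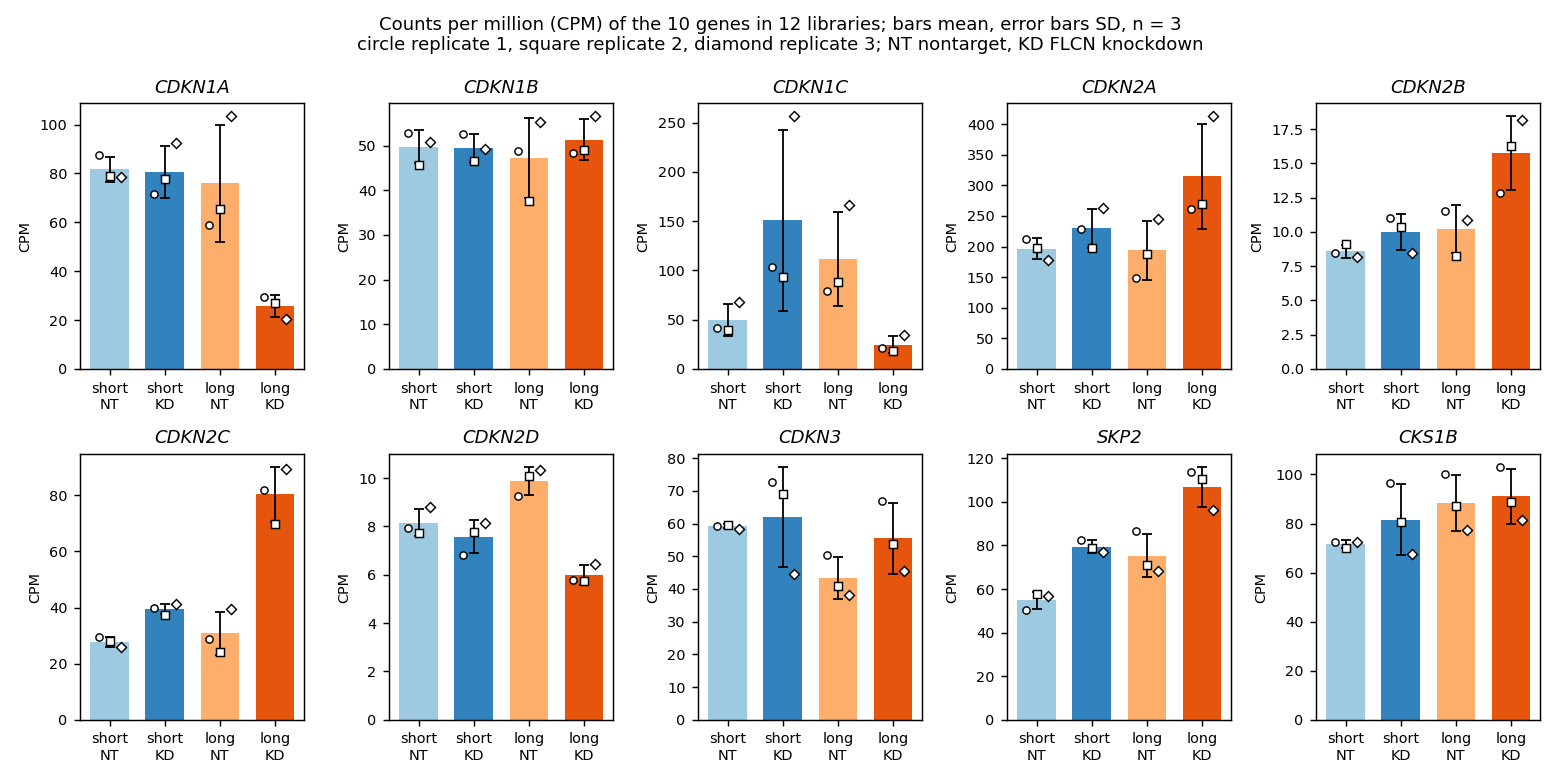
Normalized level in CPM (vertical axes, each from 0) of the 10 genes in the 4 groups (horizontal axes), with bars at the mean, error bars of 1 SD (n = 3) and a point for each library. CDKN1A at 20.5 to 29.4 CPM and CDKN2C at 69.8 to 89.2 CPM in long-term knockdown libraries lie apart from the other 9 libraries, and replicate 3 (diamond) has the highest CDKN1C value in all 4 groups.

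CDKN1A encodes p21, the inhibitor through which p53 halts the cycle. Its level was 87.6, 79.0 and 78.4 CPM in the 3 short-term nontarget libraries and 71.6, 77.9 and 92.6 CPM after short-term knockdown. The ranges of these groups overlapped, and the fold change was 0.986 (log2 fold change -0.02, 95% interval -0.40 to 0.36, edgeR adjusted p = 0.965). Long-term nontarget cells had 59.1, 65.4 and 103.5 CPM, and long-term knockdown cells had 29.4, 27.1 and 20.5 CPM. All 3 long-term knockdown libraries were thus below every other library of the series, although long-term nontarget replicate 3 stood well above its companions. CDKN1A fell by 66.0% with long-term knockdown (log2 fold change -1.56 with an SE of 0.189, edgeR adjusted p = 9.80e-06), and by 67.9% between short-term and long-term knockdown cells (log2 fold change -1.64, edgeR adjusted p = 6.97e-06). The effects of knockdown at the 2 passage ranges differed by -1.54 on the log2 scale (SE 0.259, interaction, edgeR adjusted p = 5.94e-04).

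The CDKN1A gene lies at chromosome 6, 36676460 to 36687339 (GRCh38, plus strand), and 4.79% of its exon bases are shared with the antisense RNA gene DINOL. The library kit does not mark strand, so reads of such overlapping stretches cannot be told apart. Its promoter has copies of the GC box, the letters GGGCGG that SP1 and related factors bind. These are shown because CDKN1A had the lowest adjusted p of the inhibitor genes whose RNA fell with long-term knockdown. By size CDKN1C fell more. The stretch chr6:36678604-36678657 (plus strand, 110 to 57 bases before the start in RefSeq, GRCh38.p14) reads as follows, with GC boxes in capitals.
CDKN1A: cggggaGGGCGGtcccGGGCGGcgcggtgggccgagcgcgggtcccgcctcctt
On either strand, 45.0% of the 35116 promoter windows of 300 bases hold a GC box, and so do 9 of the 12 windows of the genes described here, so the motif does not set CDKN1A apart.

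CDKN1C encodes p57, an imprinted CIP/KIP inhibitor of developing and quiescent tissues, and it had the widest range of group means of the 10 genes (2.49 on the log2 CPM scale). It was at 42.0, 39.0 and 68.0 CPM in short-term nontarget libraries and at 103.2, 92.8 and 256.6 CPM after short-term knockdown. The groups did not overlap, and the fold change was 3.03 (log2 fold change 1.60 with an SE of 0.416, edgeR adjusted p = 0.0286). This call was lost on leaving out replicate 1 or replicate 2 of the short-term nontarget cells (edgeR adjusted p = 0.102 and 0.0956), and without short-term knockdown replicate 3 the log2 fold change was 0.98 (edgeR adjusted p = 0.0363). Long-term nontarget libraries held 79.5, 88.6 and 166.0 CPM, against 20.8, 18.6 and 34.8 CPM in long-term knockdown libraries. The order was thus the opposite of that at low passage: CDKN1C fell by 78.0% with long-term knockdown (log2 fold change -2.19 with an SE of 0.438, edgeR adjusted p = 0.00226). The difference between the 2 knockdown effects was -3.79 on the log2 scale (95% interval -5.10 to -2.47, edgeR adjusted p = 9.86e-04). Between short-term and long-term knockdown cells CDKN1C fell by 83.7% (log2 fold change -2.62, edgeR adjusted p = 7.84e-04). Between short-term and long-term nontarget cells its fold change was 2.25 in the other direction. That change did not pass in the fit without a replicate block (log2 fold change 1.17, edgeR adjusted p = 0.123). It passed with the block, although same-numbered libraries hardly correlated there, as the last section gives. Replicate 3 was the highest library in 4 of 4 groups, as it was for CDKN2D.

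CDKN1B encodes p27, the inhibitor that SKP2 and CKS1B mark for destruction. Its 12 libraries lay between 37.6 and 56.7 CPM, and it was not called in any comparison. The group means were 49.8 ± 3.69, 49.5 ± 3.07, 47.2 ± 8.91 and 51.3 ± 4.63 CPM (SD, n = 3) for short-term nontarget, short-term knockdown, long-term nontarget and long-term knockdown cells. With long-term knockdown the fold change was 1.08, and its 95% interval of -0.16 to 0.39 on the log2 scale leaves room for a change of moderate size. The range of the group means, 0.13 on the log2 CPM scale, was the smallest of the 10 genes.

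CDKN2C, which encodes p18INK4C, was the INK4 gene that moved most. It was at 29.4, 27.9 and 25.9 CPM in short-term nontarget libraries and at 39.9, 37.4 and 41.2 CPM after short-term knockdown. These groups did not overlap, and the fold change was 1.42 (log2 fold change 0.51 with an SE of 0.153, edgeR adjusted p = 0.0419), yet the call was lost in each of the 6 fits that left out 1 library of this comparison (edgeR adjusted p 0.0661 to 0.146). Long-term nontarget libraries had 28.8, 24.3 and 39.3 CPM, and long-term knockdown libraries had 81.9, 69.8 and 89.2 CPM. CDKN2C rose 2.60-fold with long-term knockdown (log2 fold change 1.38 with an SE of 0.148, edgeR adjusted p = 1.77e-06), and the adjusted p remained below 0.05 in each of the 6 fits without 1 library, the highest being 2.78e-05. The long-term effect was larger than the short-term effect by 0.87 on the log2 scale (95% interval 0.42 to 1.32, edgeR adjusted p = 0.00980). Along the culture of knockdown cells CDKN2C rose 2.03-fold (edgeR adjusted p = 4.89e-05), while in nontarget cells the fold change was 1.11 (edgeR adjusted p = 0.668).

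CDKN2C lies at chromosome 1, 50960745 to 50974633 (GRCh38, plus strand), and overlaps no other gene. RefSeq gives it 3 start sites, and the windows of the outer ones each hold an E-box of the letters CACGTG, the core of the sites that MYC, TFEB and TFE3 bind. These stretches are shown because CDKN2C was the only one of the 9 genes with a promoter in the table to hold this motif (CDKN1C had no entry). The first is chr1:50960505-50960554, 240 to 191 bases before the first start, and the other is chr1:50970161-50970190, 84 to 55 bases before the last start (both plus strand, GRCh38.p14). The E-box is in capitals.
CDKN2C, first start: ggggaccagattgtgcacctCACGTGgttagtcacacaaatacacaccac
CDKN2C, last start: gttttgctgaataatCACGTGtgaatcgag
The motif reads the same on both strands, and 7.26% of all 35116 windows hold it. Counts were made per gene, so which of the starts was in use was not measured, and the letters alone do not show that a factor binds.

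CDKN2A, whose counts join the transcripts of p16INK4A and of p14ARF, was at 212.1, 198.3 and 178.3 CPM in short-term nontarget libraries and at 228.5, 198.3 and 262.8 CPM after short-term knockdown. The groups overlapped, and the difference did not pass (log2 fold change 0.23, edgeR adjusted p = 0.522). Long-term nontarget libraries had 149.3, 188.2 and 244.4 CPM and long-term knockdown libraries had 261.4, 269.7 and 413.3 CPM. The lowest knockdown library was above the highest nontarget library, and CDKN2A rose 1.62-fold (log2 fold change 0.70 with an SE of 0.186, edgeR adjusted p = 0.00979). From short-term to long-term knockdown cells the fold change was 1.37 and missed the threshold (edgeR adjusted p = 0.0847), but it passed in the fit with the replicate number as a block (edgeR adjusted p = 0.0217). The difference between the 2 knockdown effects was 0.47 on the log2 scale and did not pass (edgeR adjusted p = 0.279).

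CDKN2B, the p15INK4B gene that answers to TGF-beta, lies beside CDKN2A on chromosome 9 (22002903 to 22009363, against 21967753 to 21995301 for CDKN2A, both minus strand, GRCh38). Its mean level per kilobase of exon was the lowest of the 10 genes in each of the 4 groups, although in long-term knockdown cells its libraries overlapped those of CDKN2D. It had 11.5, 8.21 and 10.9 CPM in long-term nontarget libraries and 12.8, 16.3 and 18.1 CPM in long-term knockdown libraries, which did not overlap. The rise was 1.53-fold (log2 fold change 0.61 with an SE of 0.177, edgeR adjusted p = 0.0146), and it was lost in 3 of the 6 fits without 1 library, namely without long-term nontarget replicate 2 (edgeR adjusted p = 0.0810) and without long-term knockdown replicate 2 or replicate 3 (0.0501 and 0.0554). Between short-term and long-term knockdown cells CDKN2B rose 1.56-fold (edgeR adjusted p = 0.0128), a call lost without short-term knockdown replicate 3 (0.0503). Short-term knockdown gave a fold change of 1.17 (edgeR adjusted p = 0.541). Of the 4 tested neighbors listed for this locus, MTAP among them, 0 were called with long-term knockdown by edgeR (1 at an unadjusted p below 0.05) and 0 by DESeq2. The antisense gene CDKN2B-AS1 shares exon bases with CDKN2A (7.88% of the CDKN2A exon bases lie under overlapping genes), but it held only 53 counts over the 12 libraries.

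CDKN2D, which encodes p19INK4D, went the other way from the other INK4 genes. Long-term nontarget libraries had 9.25, 10.1 and 10.4 CPM and long-term knockdown libraries had 5.78, 5.72 and 6.44 CPM, with no overlap. CDKN2D fell by 39.6% (log2 fold change -0.73 with an SE of 0.168, edgeR adjusted p = 0.00309). The short-term groups, at 7.93, 7.75 and 8.80 CPM and at 6.83, 7.75 and 8.14 CPM after knockdown, overlapped (edgeR adjusted p = 0.763). The difference between the 2 knockdown effects was -0.62 on the log2 scale and did not pass (edgeR adjusted p = 0.101).

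**Figure D2:**
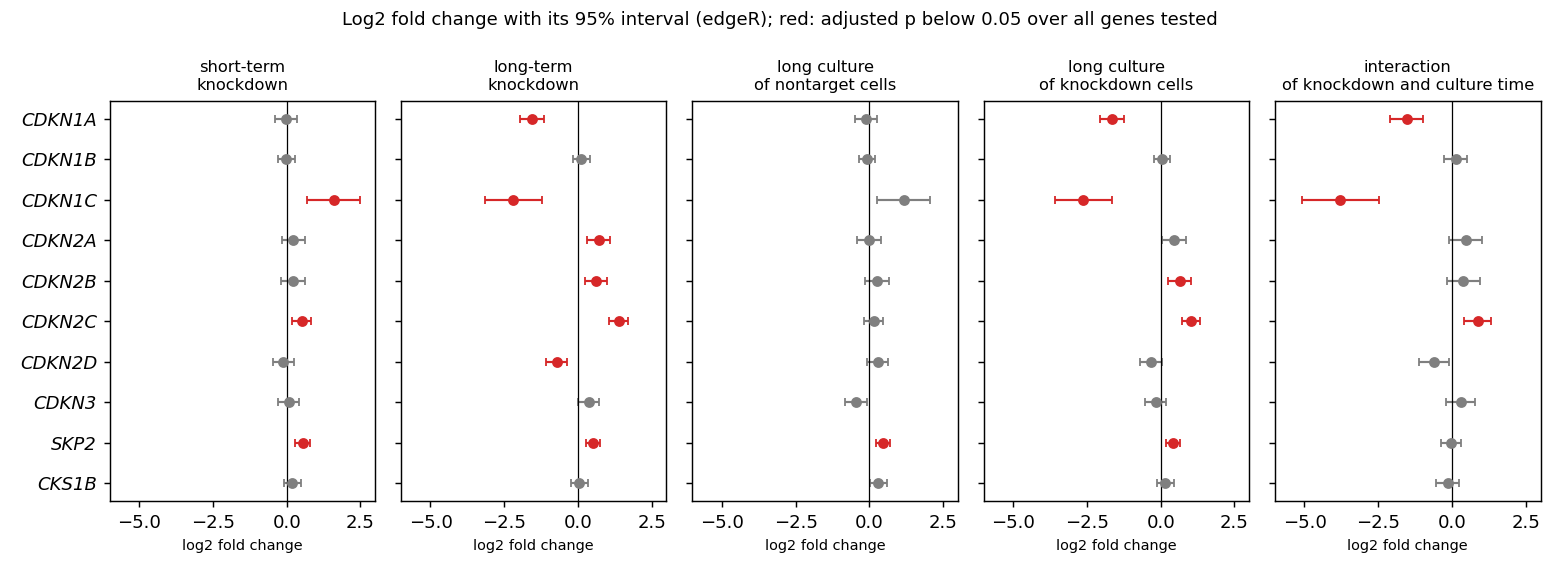
Log2 fold change (horizontal axes) of the 10 genes (vertical axis) in the 4 comparisons and in the interaction, with 95% intervals from the edgeR fit and called genes in red. CDKN1C lies at 1.60 after short-term and at -2.19 after long-term knockdown, while SKP2 lies between 0.43 and 0.54 in the 4 comparisons and at -0.03 in the interaction.

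Per kilobase of annotated exon, the levels of the 7 inhibitor genes can be set against each other. The 3 CIP/KIP genes made up 51.2% ± 3.82 of their sum in short-term nontarget cells, 58.1% ± 6.27 after short-term knockdown and 57.3% ± 3.28 in long-term nontarget cells (SD, n = 3). In long-term knockdown cells the CIP/KIP genes made up 26.2% ± 2.09 and the INK4 genes 73.8% ± 2.09. The INK4 share of each long-term knockdown library, 72.3% or more, was above that of every other library, the highest of which was 51.6%. The sum itself was 126 ± 5.46, 177 ± 47.7, 150 ± 42.4 and 141 ± 26.5 CPM per kilobase in short-term nontarget, short-term knockdown, long-term nontarget and long-term knockdown cells, so the makeup of the pool changed while the ranges of its size overlapped between the long-term groups.

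**Figure D3:**
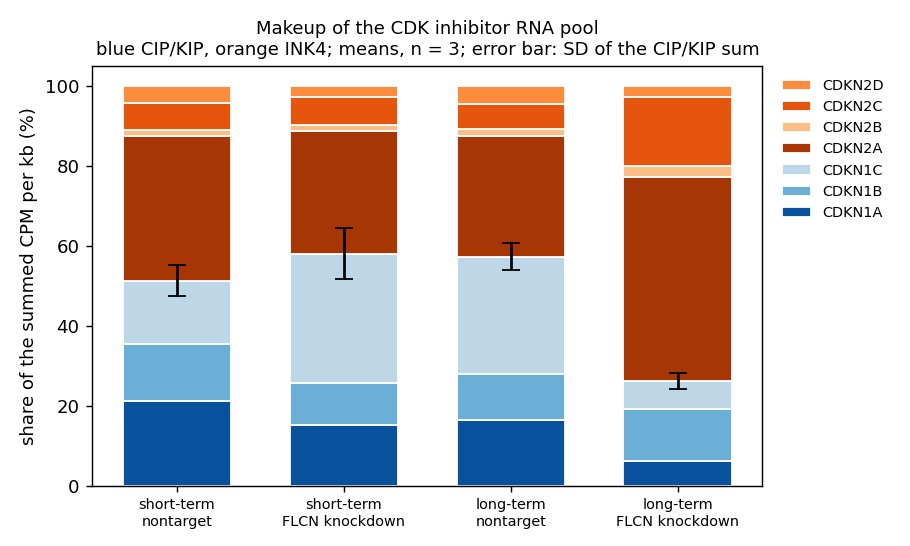
Share of each CDK inhibitor gene in the summed CPM per kilobase of the 7 inhibitor genes (vertical axis, percent) in the 4 groups, as means of 3 libraries with the SD of the CIP/KIP sum as error bar. The INK4 part (orange) is 73.8% in long-term knockdown cells and between 41.9% and 48.8% in the other groups.

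CDKN2A took the largest part of that pool in short-term nontarget cells (36.1% ± 3.41) and in long-term knockdown cells (50.9% ± 4.14). After short-term knockdown CDKN1C (32.4% ± 10.6) and CDKN2A (30.6% ± 3.98) were not apart beyond their spread, nor were they in long-term nontarget cells. CDKN1C went from 29.2% ± 3.93 of the pool in long-term nontarget cells to 6.92% ± 1.11 in long-term knockdown cells, CDKN1A from 16.5% ± 0.543 to 6.20% ± 1.99, and CDKN2C from 6.26% ± 0.812 to 17.3% ± 1.93. In long-term knockdown cells the order of levels per kilobase over all 10 genes was CDKN2A, CKS1B, CDKN3, SKP2, CDKN2C, CDKN1B, CDKN1C, CDKN1A, CDKN2D and CDKN2B. Neighbors in this order whose libraries overlapped were CKS1B and CDKN3, CDKN3 and SKP2, SKP2 and CDKN2C, CDKN1C and CDKN1A, and CDKN2D and CDKN2B.

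SKP2, the substrate receptor of the ligase that removes p27, was the one gene of the set called in all 4 pairwise comparisons. It had 50.2, 57.6 and 56.7 CPM in short-term nontarget libraries, 82.6, 78.8 and 77.0 CPM after short-term knockdown, 86.4, 71.2 and 68.1 CPM in long-term nontarget libraries and 113.7, 110.5 and 96.5 CPM in long-term knockdown libraries. The short-term nontarget libraries were the lowest and the long-term knockdown libraries the highest, with no overlap in any of the 4 comparisons. SKP2 rose 1.45-fold with short-term knockdown (log2 fold change 0.54 with an SE of 0.114, edgeR adjusted p = 0.00478) and 1.42-fold with long-term knockdown (log2 fold change 0.51 with an SE of 0.111, edgeR adjusted p = 0.00203). It also rose with culture time, 1.37-fold in nontarget cells (edgeR adjusted p = 0.0174) and 1.35-fold in knockdown cells (edgeR adjusted p = 0.00798). The call in nontarget cells was lost on leaving out short-term nontarget replicate 1 (adjusted p = 0.114, edgeR) or long-term nontarget replicate 1 (adjusted p = 0.0819). The 2 knockdown effects differed by -0.03 on the log2 scale, with a 95% interval of -0.36 to 0.30.

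The genes around SKP2 were also higher by their median. SKP2 lies on chromosome 5 (36151989 to 36184319, GRCh38, plus strand), and the 40 tested genes nearest to it, within 6.87 megabases, had a median log2 fold change of 0.32 with short-term knockdown, 0.23 with long-term knockdown, 0.42 in the long culture of nontarget cells and 0.40 in that of knockdown cells. Of these 40 genes, 9, 15, 13 and 22 were called higher and 2, 5, 2 and 5 lower in the same order. SKP2 itself was above the median of its neighbors by 0.21, 0.28, 0.04 and 0.02 on the log2 scale. Genes centered 20 megabases beyond SKP2 toward the far end of the chromosome had medians near 0 (31 genes, -0.04, 0.07, 0.02 and 0.02), but the 33 genes of the next bin had 0.26 in the long culture of knockdown cells. The raise was not confined to the surroundings of SKP2 in the knockdown comparisons, since the 4 bins of 10 megabases centered 120 to 150 megabases beyond it had medians of 0.40 to 0.83 with short-term and 0.38 to 1.15 with long-term knockdown (7 to 79 genes each), the bin centered at 60 megabases had 0.77 with short-term knockdown (25 genes), and the bin at 70 megabases had 0.26 with long-term knockdown (13 genes). In the long culture of nontarget cells the raised medians ran from the near end of the chromosome to about 10 megabases past SKP2. They were 0.40 to 0.55 in these 6 bins of 10 megabases (2 to 36 genes each). Over the same 6 bins the medians were 0.29 to 0.55 with short-term knockdown, -0.10 to 0.27 with long-term knockdown and 0.02 to 0.43 in the long culture of knockdown cells. Beyond them, in the culture of nontarget cells, the bins with 20 genes or more lay between -0.02 and 0.15. The smaller bins there had -0.12, -0.11 and 0.18 (13, 16 and 7 genes). The last of these, centered at 150 megabases, had 0.52 in the long culture of knockdown cells. For the other 9 genes of the set, the medians of the 40 nearest tested genes lay between -0.23 and 0.20 in the 4 comparisons. The files hold RNA counts, so the number of copies of this region and the RNA made per copy cannot be told apart, and the part of the region in the SKP2 result was not tested.

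**Figure D4:**
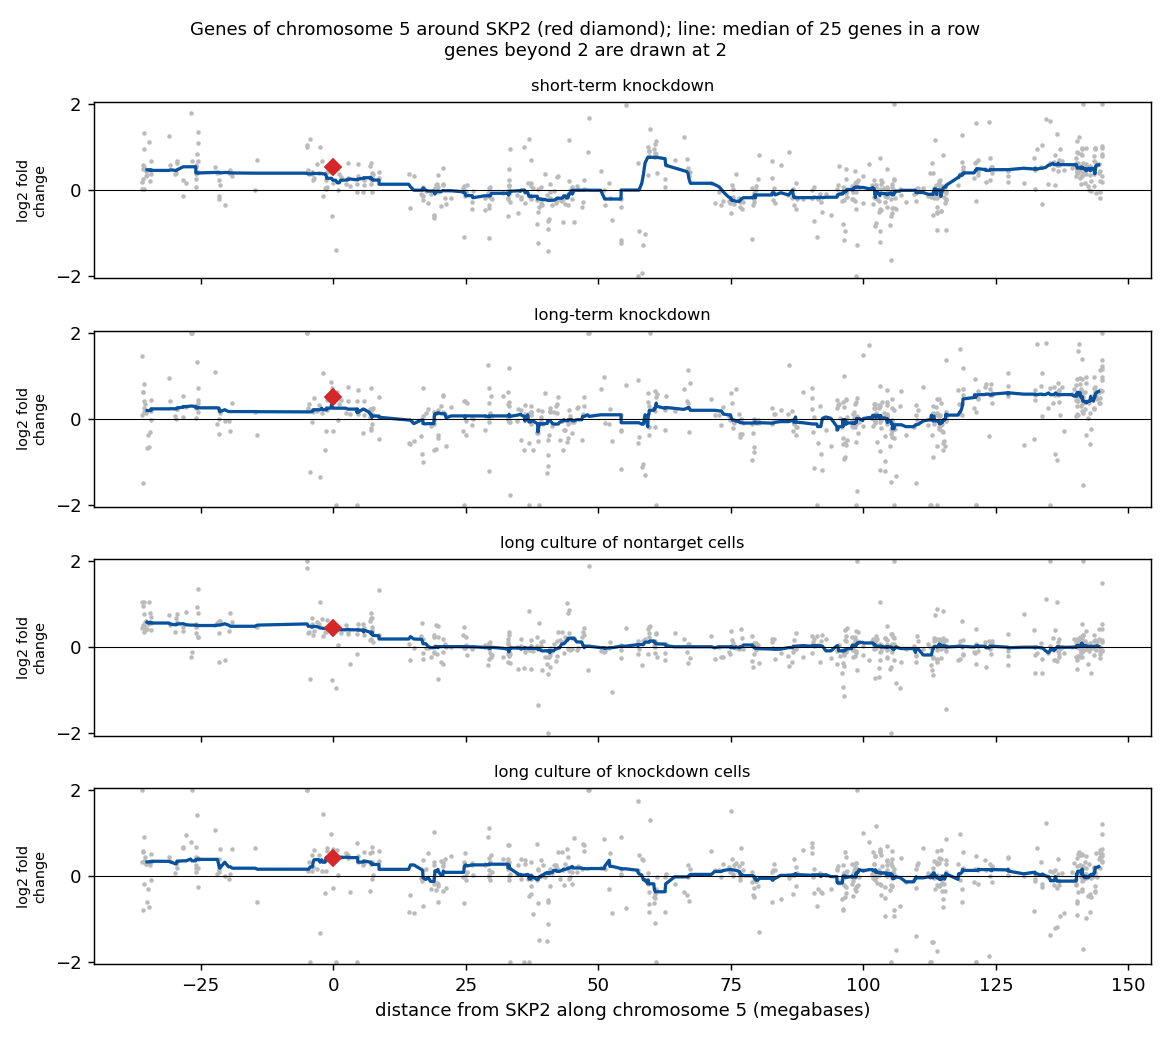
Log2 fold change (vertical axes) of the 605 other tested genes of chromosome 5 against their distance from SKP2 in megabases (horizontal axis) in the 4 comparisons, with the running median of 25 genes as a line and SKP2 as a red diamond. The line is raised around SKP2 in each panel, where the 40 nearest genes have medians of 0.23 to 0.42, and in both knockdown panels it is raised again at 120 to 150 megabases.

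CKS1B, the adaptor that fits SKP2 to phosphorylated p27, was not called in any comparison of the fit without a replicate block. Its level was 71.6 ± 1.53 CPM in short-term nontarget cells, 81.6 ± 14.4 CPM after short-term knockdown, 88.4 ± 11.5 CPM in long-term nontarget cells and 91.0 ± 11.1 CPM in long-term knockdown cells (SD, n = 3). The fold change with long-term knockdown was 1.03 (95% interval -0.23 to 0.32 on the log2 scale), and with the long culture of nontarget cells it was 1.23 (edgeR adjusted p = 0.209). CKS1B has processed pseudogenes, but the 6 named copies CKS1BP1, CKS1BP2, CKS1BP3, CKS1BP5, CKS1BP6 and CKS1BP7 held at most 6 counts each over the 12 libraries.

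CDKN3 encodes a phosphatase that removes the activating phosphate of CDK2, and its RNA peaks late in the cell cycle. It was at 59.3, 59.7 and 58.4 CPM in short-term nontarget libraries and at 72.6, 69.0 and 44.6 CPM after short-term knockdown, where replicate 3 was far below the others. Long-term nontarget libraries had 50.5, 40.9 and 38.3 CPM and long-term knockdown libraries had 66.9, 53.9 and 45.6 CPM. The long-term groups overlapped, and the fold change of 1.29 missed the threshold (edgeR adjusted p = 0.125). With the replicate number as a block it passed (log2 fold change 0.35, edgeR adjusted p = 0.0234), which brought the count of called genes in this comparison from 7 to 8. Replicate 3 was the lowest CDKN3 library in 4 of 4 groups and the lowest CKS1B library in 3 of 4. The summed level of 22 proliferation markers, given here because their RNA follows the cycle too, was 5041 to 5313 CPM in short-term nontarget, 5081 to 5325 CPM in short-term knockdown, 5696 to 5769 CPM in long-term nontarget and 5800 to 5907 CPM in long-term knockdown libraries. It was higher in the long-term libraries than in the short-term ones, and its part in the values of SKP2, CKS1B and CDKN3 was not tested.

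The promoters of CKS1B and CDKN3 are shown because they hold the letters TTTGAA of the cell cycle homology region, an element of genes expressed in G2 and mitosis. The CKS1B stretch is chr1:154974636-154974665, 45 to 16 bases before its start, and the CDKN3 stretch is chr14:54396817-54396846, 190 to 161 bases before its start, where the motif is on the reverse strand (both shown on the plus strand, GRCh38.p14). The motif is in capitals.
CKS1B: agtgcgggcggcgtgTTTGAAagcgaggcc
CDKN3: ggcccgcctcccgcgcgtctTTCAAAggtc
On either strand, 15.2% of all 35116 windows hold these letters. So do 2 of the 12 windows of the genes described here, those of CKS1B and CDKN3, so the share is near that of all windows.

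Culture time alone changed 1 of the 10 genes in nontarget cells in the fit without a replicate block, SKP2 (above), where 3.17% of all genes rose and 4.38% fell. SKP2 stayed under the fold limit, which 1.88% of all genes passed. The groups did not overlap for SKP2 or for 4 genes that did not pass the test: CDKN1C, CDKN2D and CKS1B were higher, and CDKN3 was lower, in all 3 long-term nontarget libraries. Of all tested genes 12.1% were higher and 13.6% lower without overlap in this comparison. In knockdown cells culture time changed 5 genes: CDKN2B, CDKN2C and SKP2 rose, where 11.5% of all genes did, and CDKN1A and CDKN1C fell, where 15.2% did. With the fold limit 2 of the 10 passed (CDKN1A and CDKN1C), against a background of 6.25%. The groups did not overlap for the 5 called genes and for CDKN2D, which was lower in long-term cells and did not pass, where 18.3% of all tested genes were higher and 19.8% lower without overlap. The block brought the count of called genes from 5 to 6 by adding CDKN2A. The 2 culture comparisons and the 2 knockdown comparisons use the same 12 libraries in pairs, so they are not independent of each other.

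The interaction test, which sets the long-term knockdown effect against the short-term one, called 3 of the 10 genes: CDKN2C with a more positive effect, where 4.98% of all genes were called, and CDKN1A and CDKN1C with a more negative one, where 8.43% were. CDKN1A and CDKN1C also passed the fold limit, against 5.44% of all genes, but CDKN1A went below it without long-term nontarget replicate 3 (a difference of -1.25 on the log2 scale). By adjusted p alone, each of these 3 calls remained in all 12 fits without 1 library.

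Other genes of these pathways were counted in lists, and the counts are to be read against the shares of all tested genes that were called, 5.62% higher and 4.71% lower with short-term and 13.7% higher and 15.8% lower with long-term knockdown. With so few genes in a list, nothing particular to it is read from its count. The first list holds the cyclins and kinases on which the inhibitors act. Of 12 listed genes 11 were tested, and with long-term knockdown 1 rose and 3 fell. CCND1, the cyclin D1 gene, fell from 145 ± 13.9 to 3.49 ± 0.225 CPM (SD, n = 3, a log2 difference of -5.38, edgeR adjusted p = 4.79e-14), CCND3 fell from 329 ± 53.6 to 150 ± 23.8 CPM (log2 difference -1.13, edgeR adjusted p = 3.57e-05), and CDK6 rose from 140 ± 18.6 to 236 ± 13.0 CPM (log2 difference 0.76, edgeR adjusted p = 1.22e-04). With short-term knockdown edgeR called 1 gene of this list and DESeq2 called 2. The gene called by edgeR was CCND1, which rose from 118 ± 5.78 to 180 ± 15.0 CPM (log2 difference 0.61, edgeR adjusted p = 6.18e-04). The median log2 fold change of the list was -0.07 with long-term knockdown.

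Among 12 other components and regulators of the SCF-SKP2 ligase, 1 fell with short-term knockdown, and 1 rose and 2 fell with long-term knockdown, where the median log2 fold change was 0.10. UBE2R2, a ubiquitin-conjugating enzyme related to CDC34, fell in both, from 94.2 ± 4.78 to 55.7 ± 4.74 CPM (log2 difference -0.76, edgeR adjusted p = 1.49e-04) and from 93.6 ± 5.03 to 59.6 ± 5.24 CPM (log2 difference -0.65, edgeR adjusted p = 1.36e-04). CDC34, the enzyme that serves this ligase, fell with long-term knockdown (log2 fold change -0.55, edgeR adjusted p = 0.0260), and the deubiquitinase gene USP13 rose from 56.7 ± 1.56 to 93.1 ± 5.76 CPM (log2 difference 0.72, edgeR adjusted p = 1.83e-05). Of 10 genes of other ligases that act on CIP/KIP proteins, 1 rose and 1 fell with short-term knockdown: CDC20, an activator of the anaphase-promoting complex (log2 fold change 0.45, edgeR adjusted p = 0.0307), and CUL4B, a cullin of the CRL4 ligases (log2 fold change -0.63, edgeR adjusted p = 0.00229). With long-term knockdown 1 fell, the F-box gene FBXL12 (log2 fold change -0.52, edgeR adjusted p = 0.0252).

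Of 17 listed transcriptional regulators of CIP/KIP genes, 1 fell with short-term knockdown, and 3 rose and 4 fell with long-term knockdown, with a median log2 fold change of -0.05. FOXO3, which activates CDKN1A and CDKN1B, fell in both comparisons, from 34.4 ± 1.73 to 19.4 ± 1.13 CPM (log2 difference -0.82, edgeR adjusted p = 3.32e-04) and from 35.0 ± 0.889 to 18.1 ± 2.28 CPM (log2 difference -0.94, edgeR adjusted p = 1.83e-05). KLF6, an activator of CDKN1A, fell from 150 ± 10.8 to 81.3 ± 1.74 CPM with long-term knockdown (log2 difference -0.88, edgeR adjusted p = 2.14e-06), and the methyltransferase gene KMT2A rose from 56.7 ± 2.37 to 123 ± 23.8 CPM (log2 difference 1.12, edgeR adjusted p = 5.61e-05).

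Of 27 listed p53 target genes other than CDKN1A, 25 were tested. With short-term knockdown 1 rose and 1 fell (CCNG1, log2 fold change 0.46, edgeR adjusted p = 0.0108, and TP53INP1, log2 fold change -1.09, edgeR adjusted p = 0.00497), and with long-term knockdown 4 rose and 4 fell. The genes with the largest changes in the long-term comparison all fell: TP53INP1, a stress-response gene (from 24.8 ± 7.65 to 7.62 ± 2.70 CPM, a log2 difference of -1.69, edgeR adjusted p = 3.23e-05), the death receptor gene FAS (from 17.9 ± 0.523 to 7.28 ± 1.14 CPM, a log2 difference of -1.29, edgeR adjusted p = 3.44e-05) and the cytokine gene GDF15 (from 31.8 ± 11.2 to 15.2 ± 3.09 CPM, a log2 difference of -1.08, edgeR adjusted p = 0.00262). The median log2 fold change of the list was -0.01, against -1.56 for CDKN1A.

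Of 19 tested regulators of INK4 genes, 1 rose and 1 fell with short-term knockdown, and 2 rose and 3 fell with long-term knockdown, with a median log2 fold change of 0.11. CBX2, a Polycomb subunit, rose with short-term knockdown (log2 fold change 0.65, edgeR adjusted p = 0.0268). With long-term knockdown EZH2, the Polycomb methyltransferase that silences CDKN2A, rose from 55.6 ± 4.34 to 80.3 ± 3.60 CPM (log2 difference 0.53, edgeR adjusted p = 6.10e-04). EZH2 was lower in long-term than in short-term nontarget cells (log2 fold change -0.49, edgeR adjusted p = 0.00531), while between short-term and long-term knockdown cells its log2 fold change was 0.07 (edgeR adjusted p = 0.633). ID2, an inhibitor of helix-loop-helix activators, fell from 19.4 ± 5.55 to 7.85 ± 1.23 CPM (log2 difference -1.30, edgeR adjusted p = 8.74e-04), and ETS2, an activator of CDKN2A, fell from 37.5 ± 2.43 to 18.7 ± 3.22 CPM (log2 difference -1.01, edgeR adjusted p = 1.98e-05).

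Of the imprinted genes and other neighbors of CDKN1C on chromosome 11, 8 were tested. With short-term knockdown 1 rose by edgeR and 0 were called by DESeq2, while with long-term knockdown 1 rose and 2 fell by edgeR and 4 were called by DESeq2. Their median log2 fold change with long-term knockdown was -0.30. PHLDA2, a maternally expressed neighbor, fell from 47.4 ± 14.9 to 27.1 ± 8.56 CPM with long-term knockdown (log2 difference -0.82, edgeR adjusted p = 0.0274), although its groups overlapped, and SLC22A18 rose from 5.60 ± 1.25 to 10.7 ± 1.79 CPM (log2 difference 0.92, edgeR adjusted p = 0.00236). The 40 tested genes nearest to CDKN1C had a median log2 fold change of 0.20 with short-term and -0.06 with long-term knockdown, against 1.60 and -2.19 for CDKN1C itself.

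Of the 22 proliferation markers 0 were called with short-term knockdown by edgeR (1 at an unadjusted p below 0.05) and 0 by DESeq2. With long-term knockdown 2 rose: CCNB2, a mitotic cyclin gene (from 99.4 ± 12.1 to 138 ± 14.6 CPM, a log2 difference of 0.48, edgeR adjusted p = 0.00244), and BIRC5, the survivin gene (log2 fold change 0.28 with an SE of 0.0887, edgeR adjusted p = 0.0228). The median log2 fold change of the list was 0.08.

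The genes whose levels followed those of the 3 most variable members most closely over the 12 libraries were sought among 10190 genes with a mean of at least 50 counts. For CDKN1C they were INA (Pearson's r = 0.98), SLC7A5 (0.96) and KCNK15 (0.95). SLC7A5, an amino acid transporter gene, had 309, 497, 550 and 170 CPM in short-term nontarget, short-term knockdown, long-term nontarget and long-term knockdown cells, the order of CDKN1C but for the exchange of its upper pair. For CDKN1A they were DTX4 (0.98), FMN2 (0.97) and LRRC32 (0.96), and FMN2, an actin nucleator gene, went from 9.64 CPM in long-term nontarget to 0.26 CPM in long-term knockdown cells. For CDKN2C they were CENPA (0.97), which encodes the centromeric histone, RSAD1 (0.97) and PBXIP1 (0.97). CENPA had 34.7, 46.2, 37.9 and 65.1 CPM in the 4 groups in the same order. These are descriptions over libraries that share 4 group means, so a gene that differs between the same groups scores high.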

How the data were processed

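PolyA RNA of HK-2 cells was sequenced on a MiSeq from TruSeq RNA v2 libraries. The authors trimmed reads with fastp, mapped them with STAR and assigned them to genes with featureCounts; the deposited table holds raw counts per Ensembl gene (GRCh38), which the single-library files repeat (0 values differed), and DESeq2-normalized values rounded to whole numbers, treated as a score and not used in tests. The strand setting and tool versions are not given in the sources used here. Of 58288 IDs, 55619 matched GENCODE 29 by ID and version and 2406 by ID alone (CDKN1C among these, so no position is printed for it), and 263 had no match (0.0126% of counts). Totals were 5825779 to 8991051 counts per library, and 13959 genes passed filterByExpr (99.8% of counts).

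Counts were fitted in edgeR 4.0.16 (R 4.3.3; TMM, robust quasi-likelihood, 1 term per group, 12 libraries, biological coefficient of variation 12%), with Benjamini-Hochberg adjustment over all genes tested and a threshold of 0.05. Intervals are 95% intervals of the fit. Replicates are biological according to the labels, and what they were separate in is not stated. Replicates of a group differed by more than counting noise (chi-square per degree of freedom of 2.13 to 12.6). The largest value of each group was in a pair with replicate 3. In the long-term knockdown and the culture of knockdown cells, deviations of same-numbered libraries from their group means correlated (r 0.123 to 0.458 and 0.223 to 0.455). That the numbers mark pairs there is a hint from the data and not from the labels. The main fit had no replicate block, and calls that a block changed in these comparisons are given beside it. Libraries of unlike numbers reached r of 0.231 and 0.134. Levels per kilobase use the union of GENCODE exons. Promoter windows come from RefSeq (GRCh38.p14) and were searched on both strands, and their motifs and the stretches shown were chosen with the values known. On simulated counts the fit was tested with genes changed 3-fold.

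The members, the gene lists, the cell type markers and the tests were chosen with earlier results of these data known. Named genes are all members, FLCN, up to 3 called genes per list with the largest fold change and a mean of at least 50 counts, and the 3 genes most correlated with each of the 3 members of widest range. Alternatives were RLE factors, DESeq2 1.42.0, no filter, a mean of at least 10 CPM, a replicate block, only the groups compared, each library left out and the single-library files.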

Additional observations from a re-analysis of the deposited data

Results flagged for a closer look

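For 3 genes the effect of FLCN knockdown differed between long-term and short-term cells by the interaction test (edgeR, adjusted over all genes). CDKN1A had a difference of -1.54 on the log2 scale: the knockdown libraries were below all nontarget libraries in the long-term comparison, while the short-term groups overlapped. CDKN1C had a difference of -3.79, from a short-term rise in 3 of 3 knockdown libraries to a long-term fall in 3 of 3. CDKN2C had a difference of 0.87, since its rise in all 3 knockdown libraries was larger in the long-term comparison. No test for single libraries that stand apart was made in groups of 3.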

How the results depend on the processing

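Of 695 recomputed values of the 10 genes, 667 kept their side of the threshold, 16 lost a call and 12 gained one, and 23 had the other sign, none of them for a called gene. RLE factors, DESeq2 and the single-library files left the counts of called genes at 3, 7, 1, 5 and 3 (short-term knockdown, long-term knockdown, culture of nontarget cells, culture of knockdown cells, interaction). In the culture of nontarget cells the count of 1 became 2 without a filter and in the fit of only these groups, through CDKN3 (edgeR adjusted p = 0.0206 and 0.0224). With no filter CDKN1C lost its short-term call (edgeR adjusted p = 0.140), as in the fit of only the short-term groups (0.119), and CDKN2A gained calls in the culture of knockdown cells (8.89e-04) and the interaction (0.0454), as did CDKN3 with long-term knockdown (0.0382). The mean of at least 10 CPM removed CDKN2D from the test and left 6 genes called with long-term knockdown. Over the fits without 1 library the counts ranged from 1 to 2 for short-term knockdown, 6 to 7 for long-term knockdown and 0 to 1 for the culture of nontarget cells, and stayed at 5 and 3 for the others. The genes called could still change. In the culture of knockdown cells CDKN2A passed in 1 such fit (edgeR adjusted p = 0.0431), where CDKN2B did not (0.0503). With long-term knockdown CDKN3 passed in 1 such fit (edgeR adjusted p = 0.0397). In each fit without 1 library the group left with 2 libraries shares the spread of the others. The cause of these changes was not tested beyond their construction.

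With the replicate block 4 genes were called in the culture of nontarget cells, with CDKN1C (edgeR adjusted p = 9.35e-07), CDKN3 (0.0120) and CKS1B (0.0481) added, although same-numbered libraries were correlated there at most at 0.0767 and in the short-term comparison at most at 0.111. The block changed no other call of these genes than those given here and in the report. Over all genes it raised the calls from 1441 to 2359 for short-term knockdown, from 1054 to 1786 for the culture of nontarget cells and from 1872 to 2879 for the interaction, and the mean of at least 10 CPM left 666 in the culture of nontarget cells. At 38 to 111 counts per library, CDKN2B and CDKN2D were the genes measured with the fewest counts.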
